A study of Mus musculus with 18 samples.

Results

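The hormone and xenobiotic receptors of hepatocytes were followed here as 10 genes of 31053 in the count tables. They were taken by gene name in the counts of wild-type mice, and by the same Ensembl identifiers in the table of Smo-floxed mice. All 10 were found in both tables. The xenobiotic receptors were Nr1i2 (PXR), Nr1i3 (CAR), Ahr and their partner Rxra, the nuclear hormone receptors were Nr3c1 (glucocorticoid), Thrb (thyroid hormone) and Vdr (vitamin D), and the membrane receptors were Ghr (growth hormone), Gcgr (glucagon) and Prlr (prolactin).

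RNA came from hepatocytes freshly isolated from livers of male mice of the C57BL/6J strain by collagenase perfusion, 1 library per mouse. Old mice were 24 months of age and Young mice 3 months of age, each sampled 48 h after partial hepatectomy (Old PH and Young PH, n = 3 each), the surgical removal of most of the liver, or without it (Old and Young, n = 3 each). These 12 mice were wild type, received no virus, and came from different suppliers at the 2 ages. In the other table, all 6 mice carried floxed Smo, the Hedgehog pathway transducer, labelled 3 months of age and injected with AAV8 viruses that use the hepatocyte promoter TBG. The Cre virus deleted Smo (Smo (-) PH and Smo (-), n = 2 each) and the luciferase virus served as control (Smo (+) PH and Smo (+), n = 1 each), 7 days after injection, with or without a further 48 h of regeneration. Smo was read at 1.2 and 1.5 CPM in Smo (-) PH and 11.0 CPM in Smo (+) PH, and at 1.4 and 3.3 CPM in Smo (-) and 6.2 CPM in Smo (+), where CPM are counts scaled to a library of 1000000 after trimmed-mean (TMM) correction of library size.

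As background, hepatocytes read circulating hormones with these proteins. PXR and CAR are nuclear receptors that bind DNA as heterodimers with RXRα and induce cytochrome P450 enzymes, conjugating enzymes and transporters, while AHR binds planar aromatic compounds, pairs with ARNT and drives Cyp1a1. The glucocorticoid receptor, thyroid hormone receptor β and the vitamin D receptor are ligand-regulated transcription factors, and the last is known to be scarce in hepatocytes. GHR and PRLR are cytokine-type receptors that signal through JAK2 and STAT5, and GCGR raises cyclic AMP and glucose output. In male mice the pulsed release of growth hormone maintains a set of male-type liver genes.

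Gene counts per library were 19677035 to 20491030 in Old PH, 17089525 to 23073217 in Old, 31904790 to 33390355 in Young PH, 31729517 to 36646939 in Young and 16835686 to 19151731 in the Smo table. Old and Young libraries also differed in make-up. Read pairs outside genes were 2.03% to 3.74% of the counted pairs in the 6 Old and Old PH libraries, against 25.2% to 33.9% in the 6 Young and Young PH libraries, and this property and age cannot be told apart. The summed hepatocyte markers (7 genes, none at 0) were 125100 to 173000 CPM in Old, above all Young libraries at 73760 to 92420 CPM, and 61490 to 80450 CPM in the Smo table. Most of the sum was Alb, at 98470 to 127100 CPM in Old and 52270 to 71630 CPM in Young. Of the 7 genes, 4 were called higher and 2 lower in Old by the test given below. Cps1 was lower, at 3407 to 3814 CPM in Old and 6179 to 6357 CPM in Young. Summed macrophage markers (8 genes, none at 0) reached 424 and 402 CPM in Old replicates 2 and 3, against 76.7 CPM in Old replicate 1 and 52.0 to 79.4 CPM in Young. The Smo (+) library stood apart from the other 5 of its table, with 22.5% mitochondrial counts against 3.32% to 6.85%. In whole-preparation RNA, fewer cells of a type and less RNA per cell cannot be told apart.

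Per kilobase of exon, the scale on which genes can be compared where all exon bases are counted, Rxra and Gcgr had the highest levels of the 10 genes and Vdr the lowest. In Young hepatocytes Rxra averaged 112 CPM per kb, Gcgr 104, Ghr 72.5, Nr1i2 19.5, Nr3c1 12.6, Prlr 12.2, Thrb 8.42, Ahr 7.89 and Nr1i3 2.09 CPM per kb. Vdr averaged 0.011 CPM per kb there. The place of Nr1i3 among the 10 genes is uncertain. Of its exon bases, 74.9% are shared with Tomm40l, a gene on the opposite strand, and the strand setting of the counting is not given. Whether reads from the shared bases were counted for Nr1i3 is therefore not known, and its level per kb may be too low. In Old hepatocytes Gcgr averaged 103.2 and Rxra 87.0 CPM per kb, with overlapping ranges between the ages for each gene. The leading pair also overlapped within each age, so no change of their order is shown. Rxra held 98.8 to 130 CPM per kb and Gcgr 99.2 to 112 in Young, and 72.1 to 113 and 91.6 to 114 in Old.

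**Figure D1:**
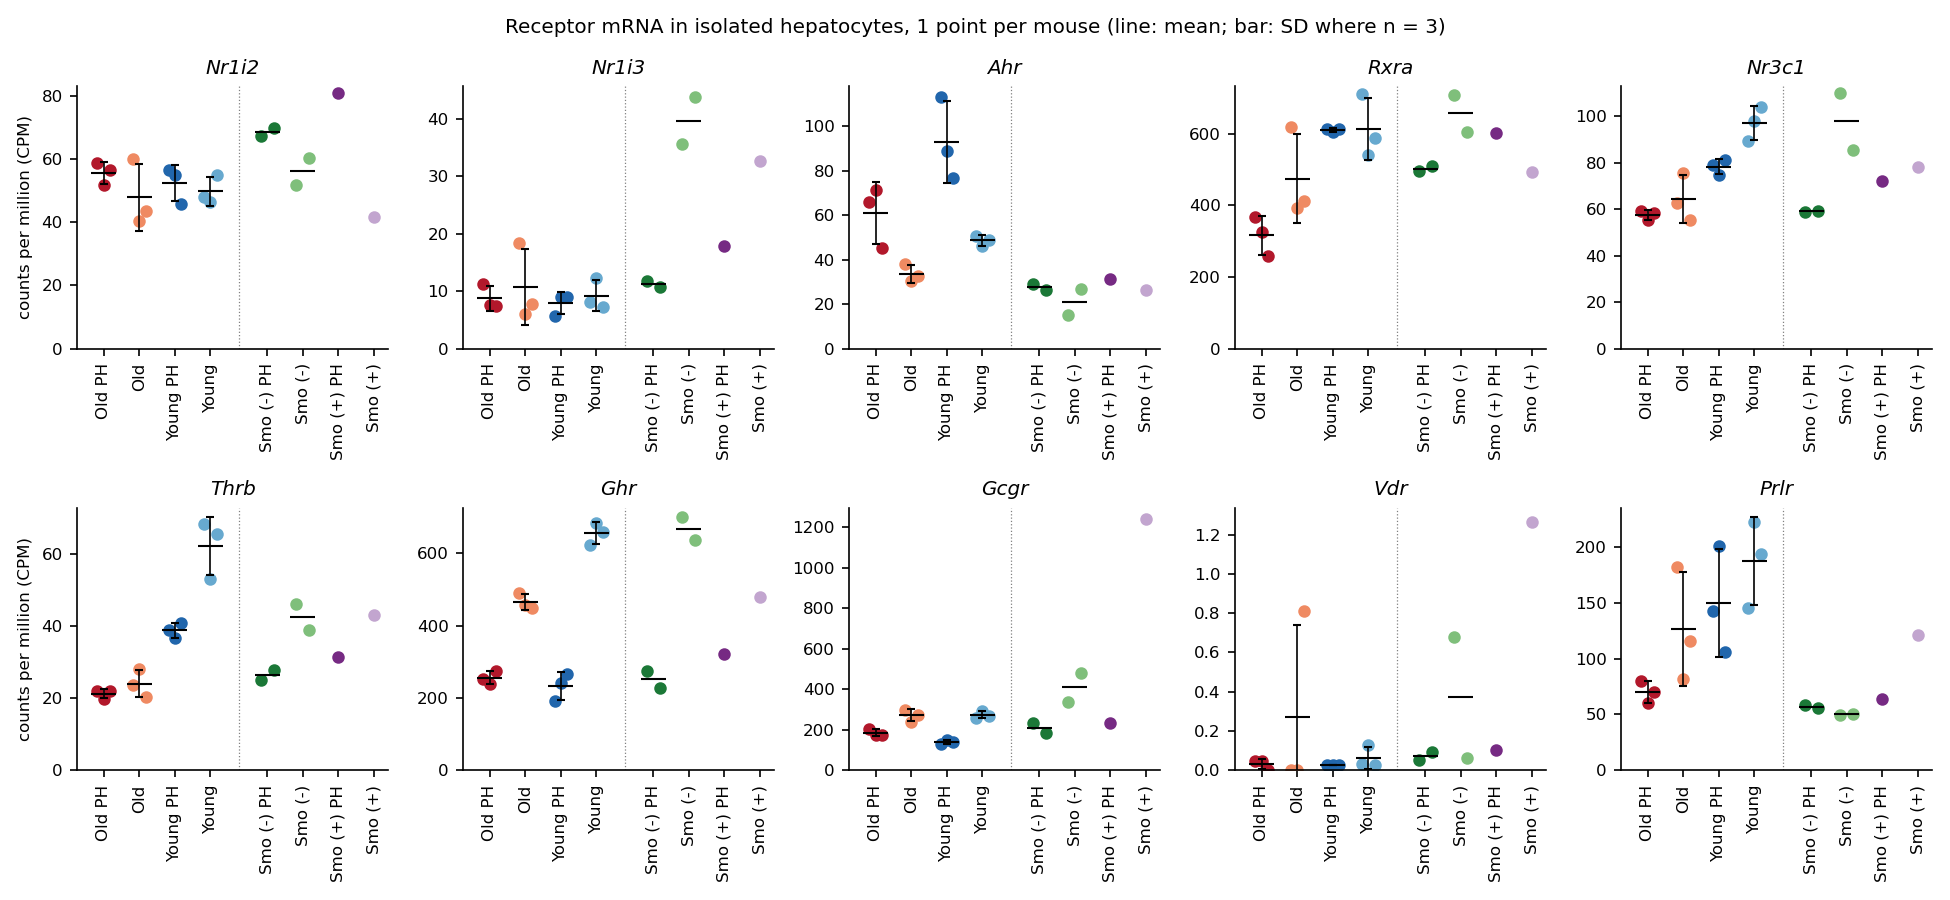
Levels of the 10 receptor genes in CPM (y axes, from 0), 1 point per mouse, by group (x axes), with the mean as a line where n is 2 or more and the SD as a bar where n = 3. Ghr lay at 239 to 274 CPM in Old PH and 449 to 491 CPM in Old, and at 191 to 266 CPM in Young PH and 623 to 685 CPM in Young, while Gcgr in the single Smo (+) library stood at 1242 CPM.

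The first question was how the receptors changed while the liver regenerated. At 48 h after hepatectomy Ghr and Gcgr fell in all 3 settings that had replicates, and Ahr rose at both ages. Thrb fell in Young PH and in Smo (-) PH. In Young PH, 1 of 9 tested receptors rose and 3 fell (edgeR quasi-likelihood test, Benjamini-Hochberg adjusted p under 0.05, the rule for every call here), where 34.2% of all 14554 genes were called, 17.8% higher and 16.4% lower. In Old PH, 1 rose and 4 fell, where 37.6% were called, 22.5% higher and 15.1% lower (of the called genes 3269 of 5466 were higher, and 2178 of 5318 with upper-quartile scaling). In Smo (-) PH none of 10 rose and 5 fell, where 30.2% of 13654 genes were called, 16% higher and 14.2% lower. No test was made of the 10 genes against other genes. Vdr was too low to be tested in the wild-type mice. In the Smo table it was 1 of the 10 tested only through Smo (+) (16 counts) and Smo (-) replicate 1 (12 counts). Comparisons that use the same libraries, such as Old PH with Old and Old with Young, are not independent of each other.

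**Figure D2:**
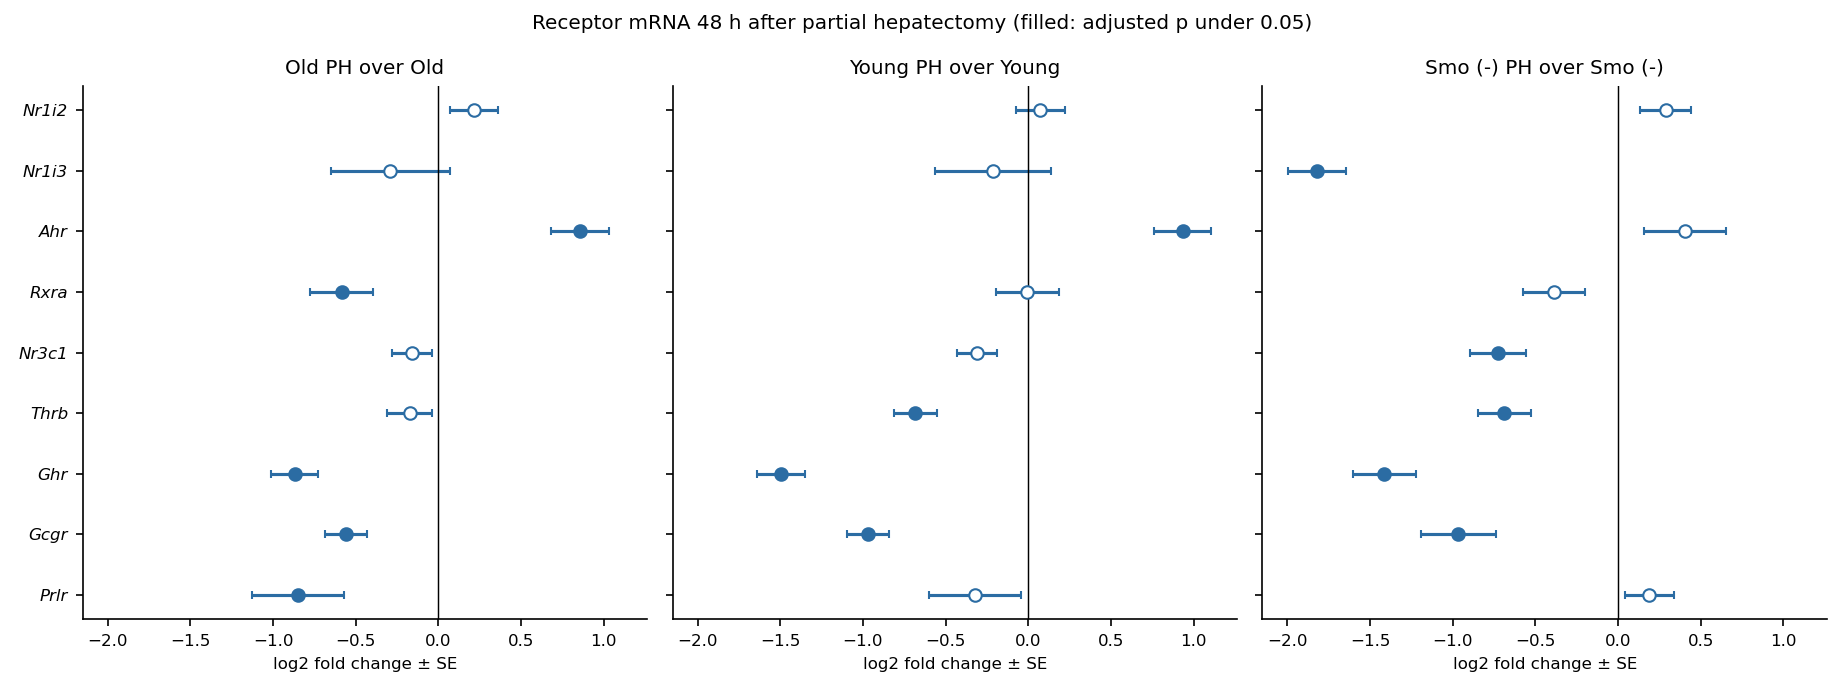
Log2 fold change 48 h after hepatectomy (x axes, with its SE as a bar) of 9 receptor genes (rows) in old mice (Old PH over Old), young mice (Young PH over Young) and Smo (-) mice (Smo (-) PH over Smo (-)); filled points passed an adjusted p under 0.05. Ghr and Gcgr lie left of 0 in all 3 panels, Ahr right of 0 in all 3, though open in Smo (-), and Nr1i3 is far to the left in Smo (-) alone, a difference between panels that was not tested.

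Among the membrane receptors, Ghr moved most in young mice. It was read at 191, 241 and 266 CPM in the 3 Young PH libraries, against 623, 685 and 660 CPM in Young. Every Young PH library was below every Young library, and the level fell to 0.354 times that of Young (log2 fold change -1.50 ± 0.14 SE, adjusted p = 3.5e-06). Old PH libraries held 253, 239 and 274 CPM, against 491, 456 and 449 CPM in Old. The groups again did not overlap, and the log2 fold change was -0.87 ± 0.14 (adjusted p = 4.0e-04). Smo (-) PH libraries held 275 and 226 CPM, against 702 and 636 CPM in Smo (-), a log2 fold change of -1.41 ± 0.19 (adjusted p = 6.6e-04). The order of the levels was thus Young, Old, Old PH and Young PH, and the last pair overlapped.

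Gcgr took the same direction. It stood at 131, 149 and 139 CPM in Young PH and 260, 293 and 266 CPM in Young, without overlap, and fell to 0.511 times the Young level (log2 fold change -0.97 ± 0.13, adjusted p = 6.2e-05). In Old PH it was 204, 176 and 172 CPM, against 299, 240 and 273 CPM in Old, a log2 fold change of -0.56 ± 0.13 (adjusted p = 0.0039). Smo (-) PH libraries held 235 and 183 CPM, against 338 and 479 CPM in Smo (-), a log2 fold change of -0.97 ± 0.23 (adjusted p = 0.011). That call was lost without Smo (-) PH replicate 2 (adjusted p = 0.078).

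Prlr behaved less evenly. Old PH libraries held 80.2, 60.1 and 70.1 CPM, against 182, 81.5 and 116 CPM in Old, and the gene fell at log2 -0.85 ± 0.28 (adjusted p = 0.029). All 3 Old PH values were below all Old values, but the lowest Old value, 81.5 CPM, lay close to the highest Old PH value, 80.2 CPM. The call was lost without Old replicate 1 (adjusted p = 0.094), Old PH replicate 2 (0.099) or Old PH replicate 3 (0.071). In Young PH it was 142, 201 and 106 CPM, against 145, 223 and 194 CPM in Young, overlapping groups with a log2 fold change of -0.32 ± 0.28 (adjusted p = 0.41). Smo (-) PH held 58.5 and 55.3 CPM, against 49.4 and 50.5 CPM in Smo (-) (log2 fold change 0.19 ± 0.15, adjusted p = 0.37).

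Among the nuclear hormone receptors, Thrb fell in young mice. It was read at 38.9, 36.7 and 41.0 CPM in Young PH, against 68.3, 53.1 and 65.7 CPM in Young. The groups did not overlap, and the log2 fold change was -0.68 ± 0.13 (adjusted p = 0.0011). Smo (-) PH held 25.1 and 27.9 CPM, against 46.3 and 39.0 CPM in Smo (-), a log2 fold change of -0.69 ± 0.16 (adjusted p = 0.011), which was lost without Smo (-) PH replicate 1 (adjusted p = 0.10). In Old PH, Thrb was at 22.0, 19.8 and 22.0 CPM, against 23.6, 28.0 and 20.4 CPM in Old. These overlapped, with a log2 fold change of -0.17 ± 0.13 (adjusted p = 0.33).

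Nr3c1, the glucocorticoid receptor, was at 78.9, 74.8 and 81.4 CPM in Young PH and 89.5, 97.8 and 104 CPM in Young. The groups were separate, yet the log2 fold change of -0.31 ± 0.12 missed the threshold (adjusted p = 0.061), and it passed with DESeq2 (adjusted p = 0.023), among other fits. In Old PH it was 59.3, 55.2 and 58.4 CPM, against 62.5, 75.6 and 55.3 CPM in Old (log2 fold change -0.16 ± 0.12, adjusted p = 0.31). In Smo (-) PH it fell to 58.7 and 59.4 CPM, against 110 and 85.5 CPM in Smo (-) (log2 fold change -0.73 ± 0.17, adjusted p = 0.011), a call lost without either Smo (-) PH replicate (adjusted p = 0.057 without replicate 1 and 0.055 without replicate 2).

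Ghr, Gcgr and Thrb were the receptors called lower in both Young PH and Smo (-) PH, and their promoters are shown for that reason, as RefSeq gives them on GRCm38.p6, the first listed start of each gene (of the 10 genes, 8 had an entry). Each runs from 250 bases before the start to 50 bases after it, 5′ to 3′ on the gene's strand. Capitals mark AGGTCA, the nuclear receptor half-site, and GGGCGG, the GC box, on either strand.
Ghr (chr15:3583303-3583602, minus strand): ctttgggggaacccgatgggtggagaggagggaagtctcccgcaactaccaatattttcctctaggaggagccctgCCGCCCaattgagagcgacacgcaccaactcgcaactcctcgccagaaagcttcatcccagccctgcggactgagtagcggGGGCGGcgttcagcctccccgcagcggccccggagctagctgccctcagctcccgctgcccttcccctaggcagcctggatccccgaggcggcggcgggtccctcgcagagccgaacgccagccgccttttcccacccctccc
Gcgr (chr11:120530477-120530776, plus strand): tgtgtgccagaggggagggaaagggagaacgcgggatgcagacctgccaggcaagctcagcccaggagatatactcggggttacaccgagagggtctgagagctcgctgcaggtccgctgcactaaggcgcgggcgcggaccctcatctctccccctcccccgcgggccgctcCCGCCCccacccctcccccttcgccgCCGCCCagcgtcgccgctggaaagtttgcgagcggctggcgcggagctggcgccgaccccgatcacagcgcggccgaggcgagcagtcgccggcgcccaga
Thrb (chr14:17660710-17661009, plus strand): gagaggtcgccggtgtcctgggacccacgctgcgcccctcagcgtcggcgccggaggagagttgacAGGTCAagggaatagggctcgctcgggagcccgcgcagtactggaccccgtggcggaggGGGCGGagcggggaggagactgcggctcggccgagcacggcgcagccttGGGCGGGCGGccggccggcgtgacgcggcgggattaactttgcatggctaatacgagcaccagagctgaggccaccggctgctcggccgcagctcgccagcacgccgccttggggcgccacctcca

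GGGCGG occurred 2 times in the Ghr promoter, 2 times in the Gcgr promoter and 3 times in the Thrb promoter, where a pair of the matches overlapped. It was present in 35.7% of all 32851 promoters in the set. AGGTCA occurred once, in Thrb, and was present in 16.3% of all promoters. The windows were rich in G and C, at 67% for Ghr, 71.7% for Gcgr and 72.7% for Thrb. The second listed starts of Ghr and Thrb held neither motif but 1 TATAAA match each, a sequence found in 13.6% of promoters. Which start these hepatocytes used was not measured by counts per gene.

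Of the xenobiotic receptors, Ahr rose. Young PH libraries held 113, 88.8 and 76.9 CPM, against 50.8, 46.1 and 49.1 CPM in Young, so the lowest Young PH library was above the highest Young library. The level was 1.91 times that of Young (log2 fold change 0.93 ± 0.17, adjusted p = 9.7e-04). In Old PH it was 66.2, 71.5 and 45.2 CPM, against 37.9, 30.2 and 32.8 CPM in Old, again without overlap (log2 fold change 0.86 ± 0.18, adjusted p = 0.0021). Without both Old libraries of high macrophage markers the Old PH call ended (log2 fold change 0.67, adjusted p = 0.084), an alternative chosen after seeing the data that left 1 Old library. In Smo (-) PH it was 29.1 and 26.4 CPM, against 14.95 and 27.0 CPM in Smo (-), overlapping values with a log2 fold change of 0.41 ± 0.25 (adjusted p = 0.25).

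Rxra, the shared partner, passed the test in Old PH alone of the 3 settings, a difference that did not itself pass a test (adjusted p = 0.24). Young PH libraries were close together at 614, 605 and 613 CPM, inside the Young range of 711, 540 and 589 CPM (log2 fold change -0.01 ± 0.19, adjusted p = 0.99). In Old PH it fell to 367, 325 and 258 CPM, against 619, 394 and 411 CPM in Old (log2 fold change -0.58 ± 0.19, adjusted p = 0.028). That call was lost without Old replicate 1 (adjusted p = 0.072), Old PH replicate 2 (0.065) or Old PH replicate 3 (0.12). Smo (-) PH libraries held 495 and 510 CPM, against 708 and 606 CPM in Smo (-) (log2 fold change -0.39 ± 0.19, adjusted p = 0.15). Nr1i2 was called in none of the 8 comparisons. It held 40.3 to 59.8 CPM over the 12 libraries of young and old mice and 41.6 to 80.9 CPM in the Smo table, where its lowest value was in Smo (+) and its highest in Smo (+) PH.

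Nr1i3 is reported with a limit. Of its 4414 exon bases on chromosome 1 (171213970 to 171220701, plus strand, GRCm38), 74.9% are shared with exons of Tomm40l, a mitochondrial import gene on the opposite strand, and the strand setting of the counting is not given in the sources used here. In Smo (-) PH it fell to 11.7 and 10.7 CPM, against 35.6 and 43.8 CPM in Smo (-). The libraries were far apart, with a log2 fold change of -1.82 ± 0.18 (adjusted p = 1.1e-04), and Tomm40l was at 4.0 and 4.1 CPM in the same Smo (-) PH libraries, against 3.9 and 4.5 CPM in Smo (-). In Young PH, Nr1i3 was 5.7, 9.0 and 9.0 CPM, against 8.0, 12.3 and 7.3 CPM in Young. In Old PH it was 11.2, 7.6 and 7.4 CPM, against 18.3, 6.0 and 7.8 CPM in Old. Neither age showed a called change (log2 fold change -0.29 ± 0.36 in old and -0.21 ± 0.35 in young mice, adjusted p = 0.55 and 0.68). In these mice Tomm40l was at 3.6, 3.6 and 4.5 CPM in Old PH and 2.4, 3.4 and 2.7 CPM in Old, and at 5.8, 10.6 and 10.7 CPM in Young PH and 8.2, 16.3 and 8.2 CPM in Young. Its levels were ordered like those of Nr1i3 across the Young PH libraries, and its highest Young library was also that of Nr1i3. Across the Old PH libraries, and across the Old libraries, its order was the reverse of that of Nr1i3. Tomm40l was lower in every Old than in every Young library. Its part in the Nr1i3 counts was not tested.

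Markers of other cells moved with hepatectomy as well. Summed sinusoidal endothelial markers (7 genes, none at 0) were 33.0 to 43.7 CPM in Old PH and 70.0 to 185 CPM in Old, 84.9 to 99.7 CPM in Young PH and 129 to 206 CPM in Young, and 254 and 295 CPM in Smo (-) PH and 111 and 232 CPM in Smo (-). They were thus lower after hepatectomy in the wild-type mice and higher in Smo (-). Summed macrophage markers were 26.7 to 83.6 CPM in Old PH and 76.7 to 424 CPM in Old, 74.6 to 95.4 CPM in Young PH and 52.0 to 79.4 CPM in Young, and 290 and 336 CPM in Smo (-) PH and 87.5 and 125 CPM in Smo (-). Summed hepatocyte markers were 60490 to 85850 CPM in Old PH and 125100 to 173000 CPM in Old, and 43690 to 52820 CPM in Young PH and 73760 to 92420 CPM in Young, but 73990 and 75860 CPM in Smo (-) PH and 61490 and 72850 CPM in Smo (-). Of their 7 genes, 4 were called lower in Old PH, 3 in Young PH and none in Smo (-) PH, and none was called higher. All 5 proliferation markers rose in each setting, with median log2 fold changes of 5.84 in Old PH, 5.94 in Young PH and 6.37 in Smo (-) PH. The part of these in the receptor levels was not tested.

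Whether old and young mice answered hepatectomy differently was tested as an interaction. None of the 9 receptors passed, where 3.26% of all genes did, 2.27% with a higher and 0.983% with a lower response in old mice (331 of 474 called genes higher, and 93 of 246 with upper-quartile scaling). The 3 receptors of smallest unadjusted p were Ghr, Thrb and Gcgr. The response of Ghr was 0.63 ± 0.20 higher in old than in young mice on the log2 scale (unadjusted p = 0.0072, adjusted p = 0.095), that of Thrb 0.51 ± 0.19 higher (adjusted p = 0.14) and that of Gcgr 0.41 ± 0.18 higher (adjusted p = 0.21). With DESeq2 the difference of Ghr was called (0.58, adjusted p = 0.030), and limma-voom called none. For Rxra the response was 0.58 ± 0.27 lower in old mice (adjusted p = 0.24), and for Ahr the difference was -0.08 ± 0.25.

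The second question was how age changed the receptors. Thrb was lower in Old hepatocytes at 23.6, 28.0 and 20.4 CPM, against 68.3, 53.1 and 65.7 CPM in Young. The groups lay far apart, and the Old level was 0.385 times that of Young (log2 fold change -1.38 ± 0.13, adjusted p = 1.3e-06). Nr3c1, Ahr and Ghr were also called lower, so that 4 of 9 tested receptors were called and none was higher, where 63% of all genes were called, 29.3% higher and 33.7% lower. The median log2 fold change was -0.50 over the 9 receptors and -0.05 over all tested genes.

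Thrb alone of these 4 kept its call under each of 17 alternatives (log2 fold change -1.49 to -0.88, adjusted p at most 9.6e-05). Nr3c1 (log2 fold change -0.59 ± 0.12, adjusted p = 7.6e-04), Ahr (-0.53 ± 0.18, adjusted p = 0.017) and Ghr (-0.50 ± 0.14, adjusted p = 0.0073) did not overlap between Old and Young. With a correction for gene length, however, Nr3c1 had a log2 fold change of -0.06 (adjusted p = 0.67), Ahr of -0.22 (adjusted p = 0.30) and Ghr of 0.18 (adjusted p = 0.31), while Thrb stayed called at -0.88. With the same correction Nr1i2 (-0.40, adjusted p = 0.018) and Gcgr (-0.35, adjusted p = 0.033) were called lower. Without Old replicates 2 and 3, which left 1 Old library, Ahr had a log2 fold change of -0.31 and Ghr of -0.37. Without Old replicate 3 alone the calls of Ahr (adjusted p = 0.097) and Ghr (0.057) ended. The count of calls was then 2, where 59.6% of all genes were called. Ahr was also not called without Old replicate 2 (adjusted p = 0.13), without Young replicate 1 (0.060) or with upper-quartile scaling (0.052).

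**Figure D3:**
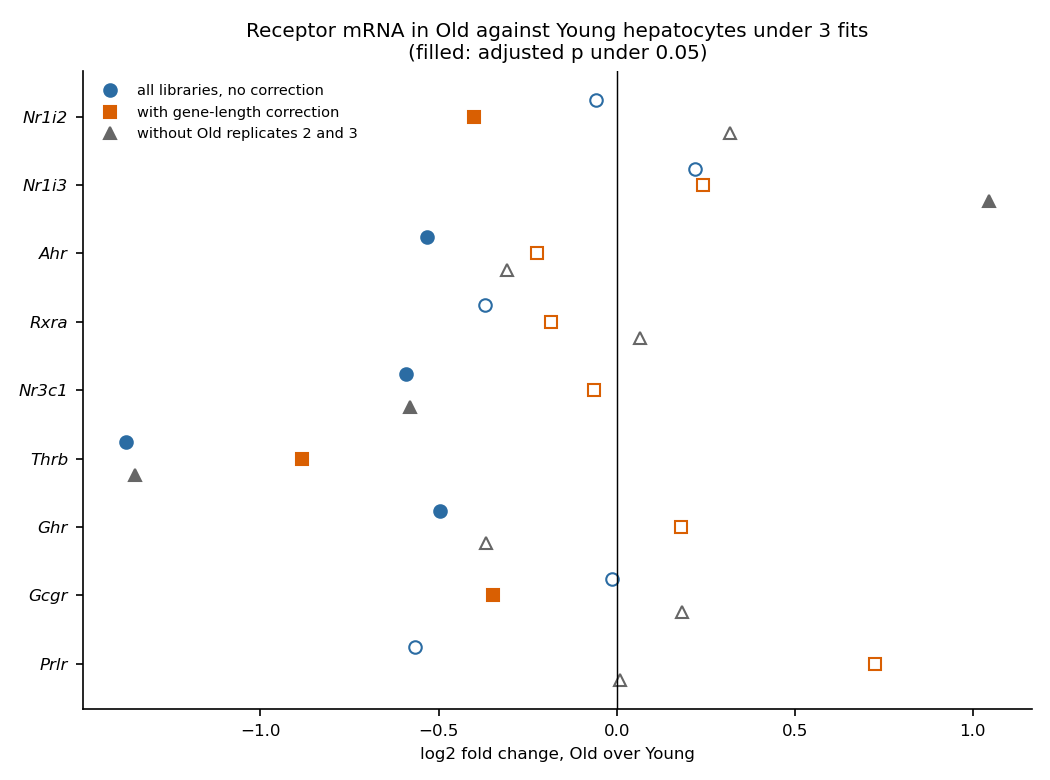
Log2 fold change of Old over Young (x axis) for 9 receptor genes (rows) with all libraries and no correction (circles), with a gene-length correction (squares) and without Old replicates 2 and 3 (triangles); filled symbols passed an adjusted p under 0.05. Thrb is filled in all 3 fits, at -1.38 without the correction and -0.88 with the correction, whereas Ghr moves to 0.18 with the correction.

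The other receptors did not pass in Old. Rxra had a log2 fold change of -0.37 ± 0.19 (adjusted p = 0.11), Prlr of -0.57 ± 0.28 (adjusted p = 0.090), Nr1i2 of -0.06 ± 0.15, Nr1i3 of 0.22 ± 0.36 and Gcgr of -0.01 ± 0.13. For Prlr and Nr1i3 the spread of Old was wide, with Old replicate 1, the library of low macrophage markers, highest in both. Without Old replicates 2 and 3, Nr1i3 was called higher (1.05, adjusted p = 0.018), and for Prlr the value was 0.01. Without Old replicate 1, Rxra (-0.49, adjusted p = 0.029) and Prlr (-0.80, adjusted p = 0.016) were called lower.

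After hepatectomy 6 of 9 receptors differed between the ages. Gcgr was higher in Old PH than in Young PH (204, 176 and 172 CPM against 131, 149 and 139 CPM, log2 fold change 0.40 ± 0.13, adjusted p = 0.015). Rxra was lower (-0.95 ± 0.19, adjusted p = 7.6e-04), as were Thrb (-0.87 ± 0.13, adjusted p = 7.2e-05), Prlr (-1.10 ± 0.28, adjusted p = 0.0040), Ahr (-0.61 ± 0.17, adjusted p = 0.0077) and Nr3c1 (-0.44 ± 0.12, adjusted p = 0.0058). These calls compare with 62.1% called among all genes, 29.7% higher and 32.4% lower. With the gene-length correction, 3 were called, where 57.7% of all genes were: Rxra (-0.82, adjusted p = 0.0034) and Thrb (-0.48, adjusted p = 0.0081) lower, and Ghr higher (0.69, adjusted p = 0.0012), which had a log2 fold change of 0.13 ± 0.14 without it. Gcgr was not called without Old PH replicate 1 (adjusted p = 0.066) or Young PH replicate 1 (0.059).

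Vdr was at the limit of detection. Old replicates 1 and 2 held 0 counts, which allows up to 3 counts or 0.18 and 0.198 CPM, and Old replicate 3 held 14 counts (0.81 CPM), against 1, 4 and 1 counts in Young. Old PH libraries held 1, 1 and 0 counts and Young PH libraries 1 each. In the Smo table there were 1 and 2 counts in Smo (-) PH and 2 in Smo (+) PH, and 12 and 1 counts in Smo (-) and 16 in Smo (+). The 3 libraries over 10 counts were thus all from quiescent livers. Summed macrophage markers were 402 CPM in Old replicate 3, 87.5 CPM in Smo (-) replicate 1 and 419 CPM in Smo (+), and 424 CPM in Old replicate 2, where Vdr was at 0. Their part in these counts was not tested.

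The third comparison asked what loss of Smo did. Quiescent Smo (-) hepatocytes had lower Gcgr at 338 and 479 CPM, against 1242 CPM in the single Smo (+) library (log2 fold change -1.60 ± 0.26, adjusted p = 0.0054), and lower Prlr at 49.4 and 50.5 CPM, against 121 CPM (log2 fold change -1.28 ± 0.17, adjusted p = 0.0035). These 2 of 10 compare with 27.4% called among all genes, 13.9% higher and 13.5% lower (1892 of 3739 called genes higher, and 1322 of 3377 with upper-quartile scaling). Both rest on 1 Smo (+) library, the one of high mitochondrial share, in which summed endothelial markers were 666 CPM, against 111 and 232 CPM in Smo (-), and macrophage markers 419 CPM, against 87.5 and 125 CPM. The part of these in the difference was not tested. In a fit with virus and time as additive terms neither was called (Gcgr -0.94 and Prlr -0.75, adjusted p = 0.57 each), and that fit called 0 of 13654 genes. Without Smo (-) replicate 2, 4 receptors were called, where 38.2% of all genes were, with Ahr lower (-0.82, adjusted p = 0.015) and Nr3c1 higher (0.49, adjusted p = 0.047).

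At 48 h no receptor passed between the virus groups. Smo (-) PH held 235 and 183 CPM of Gcgr, against 233 CPM in Smo (+) PH, and 58.5 and 55.3 CPM of Prlr, against 63.4 CPM. None of the 10 receptors was called with edgeR, DESeq2 or limma-voom, where 0.125% of all genes were called with edgeR, 0.0366% higher and 0.0879% lower. The smallest unadjusted p was that of Nr1i3, at 11.7 and 10.7 CPM in Smo (-) PH and 17.8 CPM in Smo (+) PH (log2 fold change -0.67 ± 0.21, unadjusted p = 0.011, adjusted p = 0.61). Only 1 Smo (+) PH library stood behind each of these differences. The 10 log2 fold changes lay between -0.67 and -0.16, with a median of -0.25, against -0.0028 over all tested genes. Vdr, 1 of these 10, was read here at 1 and 2 counts against 2 (-0.44 ± 1.85), and a filter at 1 CPM left 9 receptors tested. All 10 rest on the same Smo (+) PH library, so they are not separate observations. Gcgr reached 0.012 when 1 library was left out, and Vdr was 0.34 with a replicate block.

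In mice with the control virus, 1 library per time gives values without a test. Ghr was 321 CPM in Smo (+) PH and 478 CPM in Smo (+), Gcgr 233 and 1242 CPM, Thrb 31.4 and 43.2 CPM and Nr1i3 17.8 and 32.7 CPM. Prlr was 63.4 CPM in Smo (+) PH and 121 CPM in Smo (+). Nr1i2 went the other way, at 80.9 CPM in Smo (+) PH and 41.6 CPM in Smo (+), as did Rxra at 601 and 493 CPM and Ahr at 31.2 and 26.3 CPM.

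Genes that act with the receptors were counted from 14 lists. After hepatectomy the list with the largest share of members lower was that of male-type growth hormone dependent genes, with 8 of 10 members lower in Old PH, 10 of 10 in Young PH and 7 of 10 in Smo (-) PH, and none higher, with median log2 fold changes of -1.21, -1.91 and -1.20, against 0.08, -0.01 and 0.01 over all genes. Cyp2d9, a male-type P450, had log2 fold changes of -1.27 ± 0.17 in Old PH, -1.77 ± 0.17 in Young PH and -1.46 ± 0.26 in Smo (-) PH (adjusted p = 7.7e-05, 3.8e-06 and 0.0030). Cyp4a12a, a fatty acid hydroxylase with a near-identical copy that may share its reads, fell at log2 -2.001 ± 0.38 in Old PH. Without Old replicates 2 and 3, which left 1 Old library, fewer of the 10 were called in Old PH, as were fewer of all genes. Growth hormone signalling was mixed: Stat5b, the receptor's main transcription factor, fell at log2 -0.66 ± 0.11 in Old PH, -1.06 ± 0.11 in Young PH and -0.67 ± 0.16 in Smo (-) PH, and Igfals, a carrier of IGF1, fell at log2 -1.22 ± 0.22, -1.44 ± 0.22 and -1.01 ± 0.17. In all, 3 of the 14 genes fell in each setting, where 15.1%, 16.4% and 14.2% of all genes did. Those that rose were 2, 3 and 1 of 14, where 22.5%, 17.8% and 16% of all genes were higher.

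In the glucagon and cyclic AMP list, Adcy9, an adenylate cyclase, fell in all 3 settings (log2 -0.85 ± 0.12 in Old PH, -1.35 ± 0.12 in Young PH and -1.68 ± 0.20 in Smo (-) PH), and G6pc, the last enzyme of glucose release, fell in Old PH (-1.60 ± 0.36) and Young PH (-3.19 ± 0.38). In all, 3 of 15 fell and 2 rose in Old PH, among them Sik1 (1.39 ± 0.33), 3 fell and none rose in Young PH, and 5 fell and none rose in Smo (-) PH, where 15.1%, 16.4% and 14.2% of all genes were lower. Of thyroid hormone responsive genes, 5 of 12 fell and 1 rose in Old PH, 7 of 12 fell and 2 rose in Young PH, and 6 of 11 fell and none rose in Smo (-) PH. Dio1, which activates the hormone, fell at log2 -1.92 ± 0.31 in Young PH.

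Targets of PXR and CAR fell in 8 of 23 and rose in 5 in Old PH, fell in 10 and rose in 5 in Young PH, and fell in 10 and rose in 7 in Smo (-) PH. The counts here are to be read against 15.1%, 16.4% and 14.2% of all genes lower and 22.5%, 17.8% and 16% higher in these settings. Abcc3, a bile salt exporter, fell at log2 -1.44 ± 0.18 in Old PH and -1.79 ± 0.18 in Young PH, whereas Gstm3, a glutathione transferase with close copies that may share its reads, rose at 3.42 ± 0.52 in Old PH and 4.37 ± 0.31 in Smo (-) PH. AHR targets were split, with 1 higher and 1 lower of 7 in Old PH, 2 higher and 1 lower of 7 in Young PH, and 1 higher and 2 lower of 6 in Smo (-) PH. Nqo1, a quinone reductase, rose in Old PH (1.47 ± 0.30), Young PH (1.14 ± 0.31) and Smo (-) PH (1.77 ± 0.28), and Cyp1a1 rose in Young PH (3.52 ± 0.84). Ugt1a6b, a glucuronosyltransferase that shares exons with its neighbours, fell in Old PH (-0.93 ± 0.13) and Young PH (-1.01 ± 0.12), and Cyp1a2 (-1.01 ± 0.20) and Ugt1a6a (-1.26 ± 0.39) fell in Smo (-) PH. Glucocorticoid targets were split, with 4 higher and 3 lower of 16 in Old PH, and 5 higher and 5 lower of 16 in Young PH. Without Old replicates 2 and 3, which left 1 Old library, fewer were called each way in Old PH, as were fewer of all genes. Mt1, a metallothionein, rose at 2.47 ± 0.67 in Old PH and 5.02 ± 0.75 in Young PH, and Tdo2, a tryptophan-degrading enzyme, fell at -1.11 ± 0.18 and -1.76 ± 0.18.

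**Figure D4:**
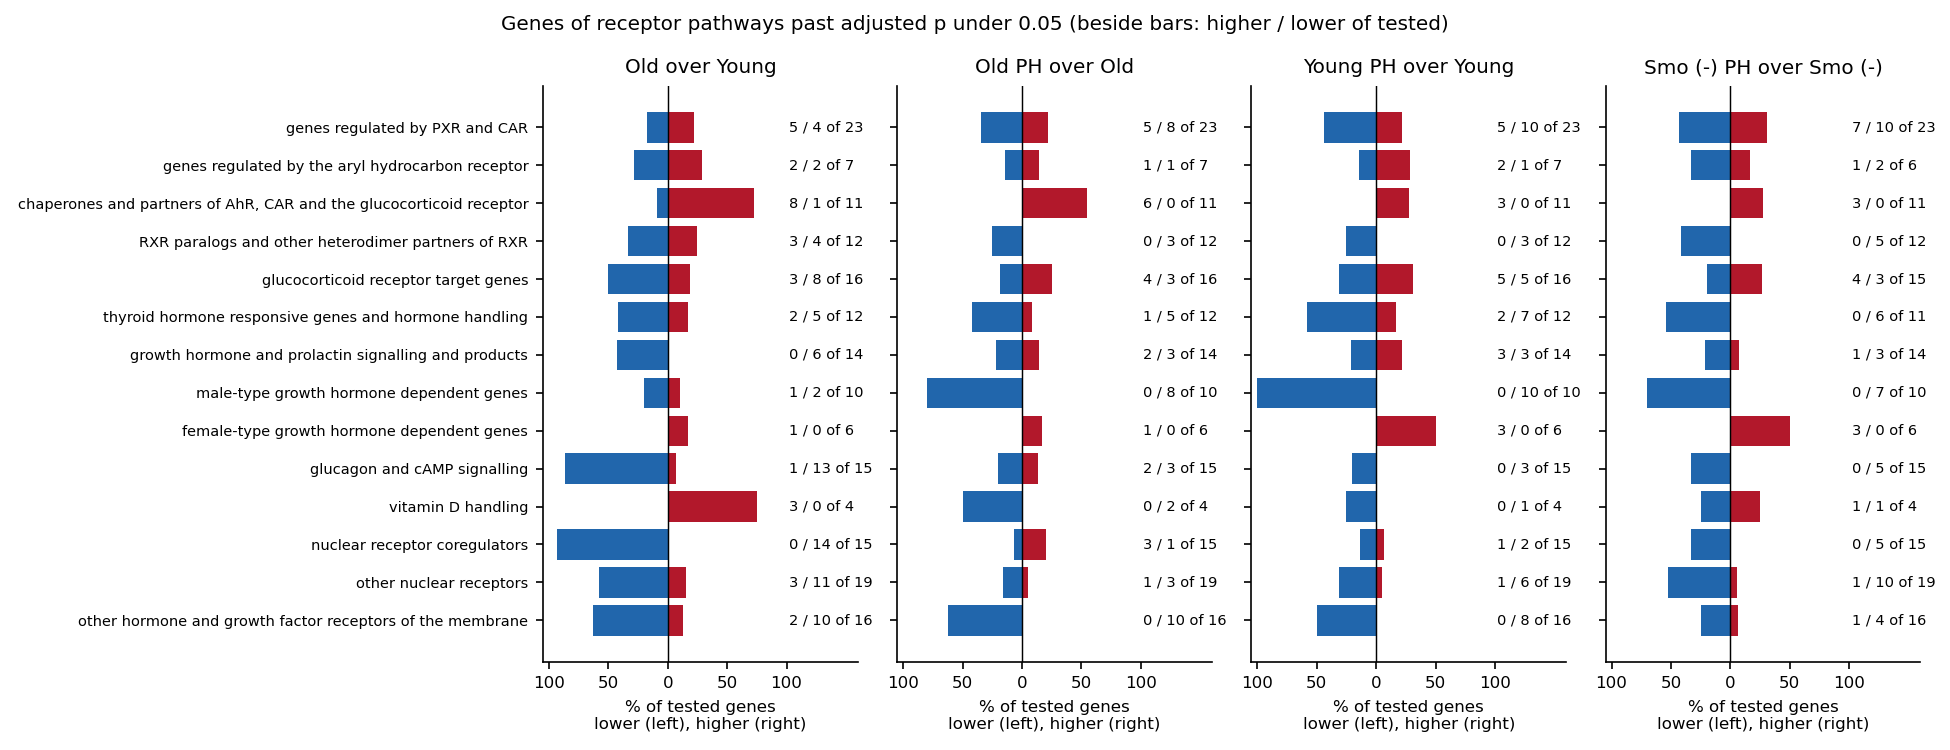
Share of tested genes in each of 14 receptor pathway lists (rows) that were lower (blue, left) or higher (red, right) at an adjusted p under 0.05, in Old over Young, Old PH over Old, Young PH over Young and Smo (-) PH over Smo (-); the counts higher and lower of those tested stand beside the bars. Male-type growth hormone dependent genes were lower in 8, 10 and 7 of 10 after hepatectomy, and coregulators were lower in 14 of 15 in Old over Young.

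By age, coregulators of nuclear receptors had the lowest median of the 14 lists. In Old hepatocytes 14 of 15 were lower and none higher, also with the gene-length correction, with a median log2 fold change of -1.80 against -0.05 over all genes. Of all genes, 29.3% were higher and 33.7% lower, and with the correction 58.6% were called, 4586 of 8522 of them higher. The acetyltransferases Crebbp (-3.46 ± 0.17) and Ep300 (-2.45 ± 0.13) and the Mediator subunit Med1 (-2.11 ± 0.11) had the smallest adjusted p (7.7e-09, 1.1e-08 and 1.0e-08). Of the glucagon and cyclic AMP list 13 of 15 were lower and 1 higher (9 lower and 2 higher with the correction), led by Adcy9 (-2.07 ± 0.12), the G protein subunit gene Gnas (-2.99 ± 0.24) and the phosphodiesterase Pde4d (-2.34 ± 0.28). Chaperones of AHR, CAR and the glucocorticoid receptor were higher in 8 of 11, among them Bag1 (1.81 ± 0.20), while Arnt, the AHR partner, was lower (-1.58 ± 0.12). The share of read pairs outside genes, given above, separated the same groups, and its part in these differences cannot be told apart from age.

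The other lists in Old are to be read against 29.3% of all genes higher and 33.7% lower. With the correction 58.6% were called, 4586 of 8522 of them higher. Glucocorticoid targets were lower in 8 and higher in 3 of 16, with Zbtb16 at log2 -4.30 ± 0.40 and Fkbp5, a receptor co-chaperone, at 1.498 ± 0.19. Other nuclear receptors were lower in 11 and higher in 3 of 19, and other membrane receptors lower in 10 and higher in 2 of 16 (6 and 1 with the correction), including the insulin receptor Insr (-1.42 ± 0.14). RXR partners were lower in 4 and higher in 3 of 12 (3 and none with the correction), and growth hormone signalling genes lower in 6 of 14 (2 lower and 3 higher with the correction). Vitamin D handling was higher in 3 of 4, and in none with the correction. PXR and CAR targets were higher in 5 and lower in 4 of 23 (2 and 4 with the correction). More were higher and fewer lower without Old replicates 2 and 3, which left 1 Old library. AHR targets were higher in 2 and lower in 2 of 7 (2 and 3 with the correction), thyroid hormone responsive genes higher in 2 and lower in 5 of 12 (2 and 3), male-type genes higher in 1 and lower in 2 of 10 (1 and 3), and female-type genes higher in 1 of 6 (none).

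In Smo (-) against the Smo (+) library, where 13.9% of all genes were higher and 13.5% lower, glucocorticoid targets were higher in 8 and lower in 1 of 15, including the tyrosine aminotransferase Tat (log2 2.30 ± 0.38). The glucagon list was higher in 10 and lower in 1 of 15, including Sik1 (2.03 ± 0.21), a kinase. The additive fit called none of these genes. All 8 macrophage and all 7 endothelial markers were lower in the same comparison. At 48 h, Smo (-) PH against Smo (+) PH, 4 genes of all lists passed, where 0.125% of all genes did: Igfbp1 (-3.37 ± 0.25), Zbtb16 (-2.38 ± 0.31) and Cyp7a1 (-1.78 ± 0.22) lower, and Gstm3 (2.61 ± 0.38) higher. With upper-quartile scaling or a filter at 1 CPM, 1 list gene was called, a glucocorticoid target that was lower.

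Across the 12 libraries of young and old mice the likeness of receptor levels is given as a description, because libraries of a group share its condition. The log2 CPM of Nr3c1 and Thrb correlated at Pearson r = 0.96, of Ghr and Gcgr at 0.90 and of Rxra and Prlr at 0.81, and Ahr and Gcgr at -0.82. Of 11864 genes with a mean of at least 1 CPM, those most like Ghr were Slc13a2, Abca8a and C2cd2 (0.98 each), those most like Gcgr were Cyp4f15, Cyp2d9 and Sirt3 (0.98 each), and those most like Thrb were Mtmr4 (0.99), Mgam (0.99) and Larp1 (0.99). For Nr3c1 they were Cdk19 (0.97), Lgr4 (0.96) and Samd8 (0.96), for Rxra Map3k11 (0.97), Ttc7 (0.96) and Csk (0.96), for Ahr Caskin2 (0.97), Dclre1b (0.95) and Spidr (0.95), and for Prlr Zfp768 (0.93), Aspdh (0.93) and Clptm1 (0.92). Nr1i2 (Scly, 0.86) and Nr1i3 (Tdrp, 0.81) had the lowest best matches of the 9 tested receptors.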

How the data were processed

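Polyadenylated RNA of isolated hepatocytes was sequenced in 18 libraries. The authors deposited unnormalised counts for each Ensembl gene, obtained with Trim Galore, STAR 2.5.0c on mm10, SAMtools, Picard (duplicates removed) and HTSeq. Annotation release and strandedness of counting are not given in the sources used here. Pairs outside genes (2.03% to 33.9% per library) stayed out of library sizes. Names came from GENCODE M21 by identifier (31011 of 31053 matched), because names in the Smo table were out of step with the identifiers.

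Each table was fitted whole in R 4.3.3 with edgeR 4.0.16: the quasi-likelihood test after TMM normalisation and filterByExpr (count at least 10 in the smallest group, 15 in all), with 1 coefficient per group. A prior count of 2 entered only log2 CPM values, as in the correlations and the gene-length correction. The filter left 14554 genes (8 residual degrees of freedom) and 13654 genes (2). Calls needed a Benjamini-Hochberg adjusted p below 0.05 over all of them. P-values measure the spread between mice, and a lone Smo (+) library was assumed to vary like the other groups. No test crossed the tables.

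Alternatives were DESeq2 1.42.0, limma-voom (limma 3.58.1), other size factors and filters, a replicate block, a gene-length correction, an additive fit, only the 2 groups compared, and leaving out libraries. Restricting to nuclear protein-coding genes and leaving out Old replicates 2 and 3 were chosen after seeing the data. Fits were tested on simulated data. The text names the 10 receptors, up to 3 called genes of smallest adjusted p per list and comparison, and the 3 genes most like a receptor; Tomm40l was named for its overlap with Nr1i3. The members and lists were chosen with earlier results of these data known. Promoters are from RefSeq (GRCm38.p6).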

Additional observations from a re-analysis of the deposited data

Results flagged for a closer look

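None of the 9 tested receptors had a response to hepatectomy that was called different between the ages, while 7 of 180 tested entries of the 14 receptor lists were (3.89%, near the 3.26% of all genes), under the same interaction test (edgeR, differences on the log2 scale, old minus young response). Without Young PH replicate 2 the test called 60 genes in all, against 474, and 1 list entry. Elovl3, a male-type fatty acid elongase, had a difference of 3.59 ± 0.76 SE (adjusted p = 0.027), at 92.5, 134 and 160 CPM in Old PH and 245, 544 and 343 CPM in Old, against 2.97, 4.35 and 21.2 CPM in Young PH and 342, 352 and 316 CPM in Young. The glucocorticoid targets differed in opposite ways, with Igfbp1 at 3.60 ± 0.77 (adjusted p = 0.027) and Fkbp5 at -2.06 ± 0.26 (adjusted p = 0.0033). Fkbp5 was at 33.6, 25.5 and 22.8 CPM in Old PH and 29.9, 19.3 and 22.9 CPM in Old, against 45.2, 37.5 and 38.1 CPM in Young PH and 7.97, 9.85 and 7.74 CPM in Young. Nr0b2, a corepressor receptor without a DNA-binding domain, had a difference of 1.93 ± 0.46 (adjusted p = 0.039) and the PXR and CAR target Cyp2c55 one of 2.17 ± 0.49 (adjusted p = 0.033). The adrenergic receptor gene Adra1b (0.76 ± 0.18, adjusted p = 0.039) and Arnt (0.66 ± 0.17, adjusted p = 0.047) had the smallest differences. No group held enough samples for a test of single outlying libraries.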

How the results depend on the processing

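Of 1200 refitted receptor log2 fold changes, 1104 kept direction and side of the threshold, 16 gained a call, 28 lost one and 52 turned direction. The gene-length correction gave 3 called receptors in Old PH over Young PH (against 6 as reported), DESeq2 gave 1 for the difference of responses (Ghr, against 0), and the additive fit gave 0 in Smo (-) over Smo (+) (against 2). These refits called 57.7%, 7.59% and 0% of all genes. Leaving out 1 library gave 2 to 6 calls in Old over Young (against 4), 3 to 5 in Old PH over Old (5), 2 to 4 in Smo (-) over Smo (+) (2) and 3 to 6 in Smo (-) PH over Smo (-) (5). Of all genes, the same refits called 57.8% to 61.4%, 30.4% to 34.3%, 21% to 38.2% and 18.4% to 32%. Deviations of same-numbered samples correlated at -0.11 to 0.23. The highest was between replicates 1 of Old and Young, where the best differently numbered sample reached -0.11. The fit with a replicate block called 4, 4, 5 and 6 receptors in the comparisons of Old with Young, Young PH with Young, Old PH with Old and Old PH with Young PH, and 2, 0 and 5 in the Smo table, the same counts as without it. With the block, 61.9%, 32.4%, 36.1% and 60.8% of all genes were called in the former, and 30.7%, 0.901% and 32.9% in the Smo table.

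Values that turned direction, all of uncalled receptors but for Ghr, were these. In Old over Young, Nr1i2 was 0.074 (upper quartile), 0.0090 (no filter) and 0.32 (without Old replicates 2 and 3), Gcgr 0.0138 (DESeq2), 0.0137 (RLE), 0.12 (upper quartile), 0.057 (no filter) and 0.18 (without both), Rxra 0.067 and Prlr 0.0098 (without both), and with the length correction Ghr was 0.18 and Prlr 0.72. In Young PH over Young, Rxra was 0.0026 (voom), 0.0096 (block) and 0.012 (2 groups). Nr1i2 was -0.13 in Old PH over Old (without both) and -0.25 in Old PH over Young PH (length). In the difference of responses, Nr1i2 was -0.023 and Nr3c1 -0.030 (upper quartile) and Nr1i3 0.036 (voom). In Smo (-) over Smo (+), Nr1i3 was -0.21 (additive) and Thrb 0.015 (no filter) and 0.0058 (block), and Vdr was 0.34 in Smo (-) PH over Smo (+) PH (block).

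Leaving out 1 library turned these ranges across 0: Nr1i2 -0.13 to 0.14, Nr1i3 -0.30 to 0.58 and Gcgr -0.036 to 0.16 in Old over Young, Nr1i3 -0.36 to 0.044 and Rxra -0.092 to 0.12 in Young PH over Young, Nr1i3 -0.62 to 0.26 in Old PH over Old and -0.072 to 0.26 in Old PH over Young PH, Nr1i3 -0.38 to 0.49 and Ahr -0.21 to 0.11 in the difference of responses, Ahr -0.82 to 0.040 and Thrb -0.15 to 0.095 in Smo (-) over Smo (+), Gcgr -0.35 to 0.012 in Smo (-) PH over Smo (+) PH, and Vdr -3.13 to 0.22 in Smo (-) PH over Smo (-). The causes were not tested. Upper-quartile scaling moved the median log2 fold change of all genes to 0.086 (against -0.05) in Old over Young, -0.081 (against 0.08) in Old PH over Old, -0.090 (against 0.08) in the difference of responses and -0.14 (against -0.0012) in Smo (-) over Smo (+). Of 1806 list counts, 1549 were within 1.5 times the reported count.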

Other observations

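Ghr and Prlr encode related cytokine-type receptors. The ratio of Ghr to Prlr CPM was 4.7 and 4.1 in Smo (-) PH and 14.2 and 12.6 in Smo (-), against 5.06 in the Smo (+) PH library and 3.95 in the Smo (+) library. In young mice it was 1.34, 1.20 and 2.51 in Young PH and 4.30, 3.08 and 3.41 in Young, without overlap. In old mice the ratios overlapped, at 3.16, 3.97 and 3.91 in Old PH and 2.71, 5.60 and 3.88 in Old. The summed level of the 10 receptors was 963 to 1121 CPM in Old PH and 1352 to 1794 CPM in Old, and 1370 to 1459 CPM in Young PH and 1990 to 2003 CPM in Young. These values were chosen after seeing the data and were not tested.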
